A study of Drosophila melanogaster with 3 samples.

Results

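Core promoter peaks were the thresholded binding sites of CG12071 whose summit lay 0 to 50 bp to either side of the nearest transcription start site (TSS) of a protein-coding gene. They numbered 492 of 4261 thresholded peaks (11.5%, Wilson 95% interval 10.6 to 12.5%). Among the thresholded peaks the members were found by position alone. The summit deposited for each peak and the TSSs of all transcripts in the Ensembl annotation BDGP6 were used, and no signal value entered this step. The thresholded list itself had already been selected for agreement among the replicates. CG12071 carrying green fluorescent protein (GFP) at its C-terminal end was immunoprecipitated with its chromatin and the DNA was sequenced (ChIP-seq). The material was whole embryos of Drosophila melanogaster aged 12 to 24 h, of both sexes, from a single transgenic line, in 3 biological replicates of 1 group. All replicates carried the transgene, so no comparison between genotypes, ages or treatments was possible, and the promoter that drives the transgene was not given in the sources used here. Whole embryos mix many cell types, and sonication left fragments of 200 to 800 bp, wider than the 50 bp limit.

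A core promoter is the stretch around a TSS on which RNA polymerase II and the general transcription factors assemble. In Drosophila, promoters of regulated genes often carry a TATA box, an initiator or a downstream promoter element (DPE), whereas promoters of broadly expressed genes often carry the DNA replication-related element (DRE) or the motifs known as 1, 6 and 7. Genes for ribosomal proteins and other parts of the translation machinery commonly start within a pyrimidine-rich element, the TCT initiator, in place of the usual initiator.

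Replicate 3 stood apart from the others before any result was drawn. It had 4015 entries with a q-value of 0.05 or less, whereas replicates 1 and 2 had 13828 and 12616. Read depth was unknown. All intervals given with shares of peaks or TSSs reflect counting error alone. The peak score had no stated scale, so strength is given as a rank within 1 list, with rank 1 the strongest. No core promoter peak lay at CG12071 itself, where the closest thresholded summit was 6202 bp from the TSS.

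Start sites of 5 ribosomal protein genes with strong core promoter peaks are shown, chosen among those that hold the TCT initiator so that it can be seen. Not every strong peak had it, RpL31 at rank 129 being 1 without. Each sequence runs from 30 bases before to 20 bases after the TSS in the direction of transcription (release 6 of the genome, read from RefSeq), and capitals mark the TCT initiator. The stretches are chr3R:25247452-25247502 on the minus strand for RpS27, chr2L:10201070-10201120 on the plus strand for RpL7, chr3L:13041771-13041821 on the plus strand for RpS4, chr3L:8600976-8601026 on the plus strand for RpL14 and chr2L:19009217-19009267 on the minus strand for RpL30.
RpS27: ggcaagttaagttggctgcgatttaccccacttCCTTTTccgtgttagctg
RpL7: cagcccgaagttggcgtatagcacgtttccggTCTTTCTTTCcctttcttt
RpS4: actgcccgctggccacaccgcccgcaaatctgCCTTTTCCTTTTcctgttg
RpL14: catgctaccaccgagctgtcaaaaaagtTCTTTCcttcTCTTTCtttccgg
RpL30: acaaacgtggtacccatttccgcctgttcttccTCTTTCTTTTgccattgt
The strongest core promoter peak of all, at Ugalt, is shown for contrast because its TSS held none of the 10 elements that were sought. Its stretch, chrX:2703832-2703892 on the minus strand, runs from 40 bases before to 20 bases after the TSS.
Ugalt: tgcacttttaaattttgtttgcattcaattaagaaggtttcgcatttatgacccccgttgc

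Summits were dense on both sides of the TSS and thinned out sharply downstream of it. Bases within 50 bp of a TSS made up 1.41% of the genome, so the core promoter share of thresholded peaks was 8.18 times the share of bases. Of the 1733 thresholded peaks within 500 bp of a TSS, 28.4% were core promoter peaks, where 12.3% of the bases within that distance lay inside the 50 bp limit. The 50 bp upstream of the TSS held 229 summits, the 50 bp downstream held 259 and the start base itself held 4. The next 50 bp upstream still held 199 summits, against 117 in the next 50 bp downstream, and 28 summits lay 151 to 200 bp downstream. The core promoter peaks thus sat at the downstream edge of a broader run of upstream sites, and their median position was 3 bp downstream of the TSS.

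**Figure D1:**
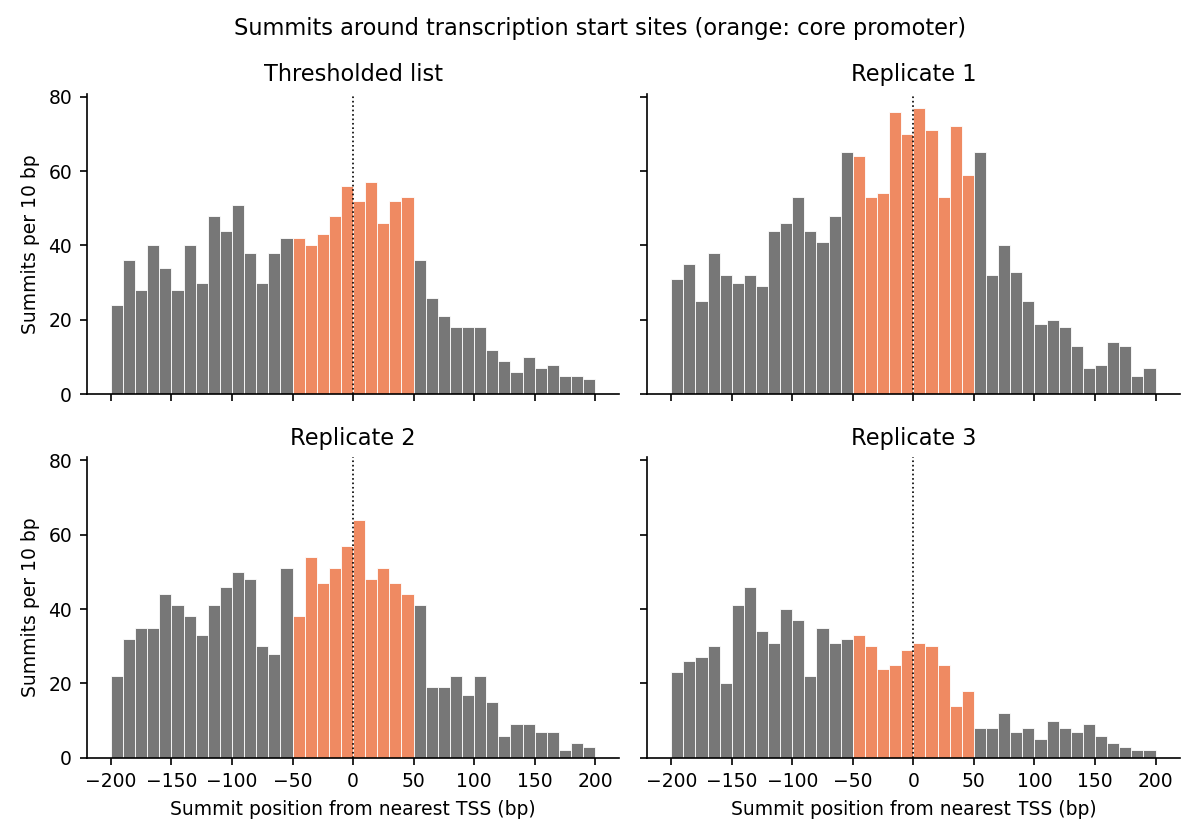
Number of summits per 10 bp of distance from the nearest protein-coding TSS (negative values upstream) in the thresholded list and in the 4261 strongest entries of each replicate, with the bins inside the 50 bp limit in orange. In every panel the count drops within 100 bp downstream of the TSS, and replicate 3 has the fewest summits inside the limit (260, against 655 in replicate 1 and 506 in replicate 2).

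The core promoter share differed between replicates. Among the 4261 strongest entries of each list, 655 were within 50 bp of a TSS in replicate 1 (15.4%), 506 in replicate 2 (11.9%) and 260 in replicate 3 (6.10%), with a mean of 11.1% ± 4.68 (SD, n = 3). Even the lowest of these, in replicate 3, was 4.32 times the share of bases. Among the 1000 strongest entries the shares were 13.2%, 9.60% and 6.60% in replicates 1, 2 and 3. The median position of the core promoter entries moved little, at 1 bp downstream of the TSS in replicate 1, at the TSS in replicate 2 and at -4 bp, upstream, in replicate 3.

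Genes for cytoplasmic ribosomal proteins, the protein parts of the ribosome outside mitochondria, made up the largest group of members among the 21 gene lists that were counted. Of 88 such genes, 57 had a core promoter peak (64.8%, Wilson 95% interval 54.4 to 73.9%), against 500 of all 13945 protein-coding genes (3.59%). Large-subunit genes with names in RpL held 36 of these out of 50, and small-subunit genes with names in RpS held 20 of 37. In single replicates 60, 63 and 42 of the ribosomal protein genes had a core promoter entry among the strongest 4261 (mean 55.0 ± 11.4, SD, n = 3), and 41 had one in all 3. The corresponding shares of all genes were 4.79%, 3.64% and 1.87% in replicates 1, 2 and 3.

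Ribosomal protein genes also supplied most of the strongest members. They were 16 of the 25 strongest core promoter peaks, 27 of the 50 strongest and 46 of the 100 strongest. RpS27, a small-subunit gene, came first among them, with ranks of 40, 34 and 61 in replicates 1, 2 and 3. RpS4, also of the small subunit, ranked 84, 62 and 148. The large-subunit genes RpL31 and RpL14 ranked 99, 112 and 296, and 138, 80 and 292. These 4 genes were among the strongest entries of every replicate, each with its weakest rank in replicate 3. RpL7, another large-subunit gene, ranked 82 and 70 in replicates 1 and 2 but had no entry within 100 bp in replicate 3. The other ribosomal protein genes among the 25 strongest were RpL24, RpL30, RpS28b, RpLP0, RpL13A, RpL13, RpL8, RpS25, RpS10b, RpL41 and RpL28. RpLP0 encodes the stalk protein of the large subunit and ranked 344, 152 and 220. Across all 57 ribosomal protein members, ranks in the thresholded list ran from 43 for RpS27 to 2963 for RpL29.

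**Figure D2:**
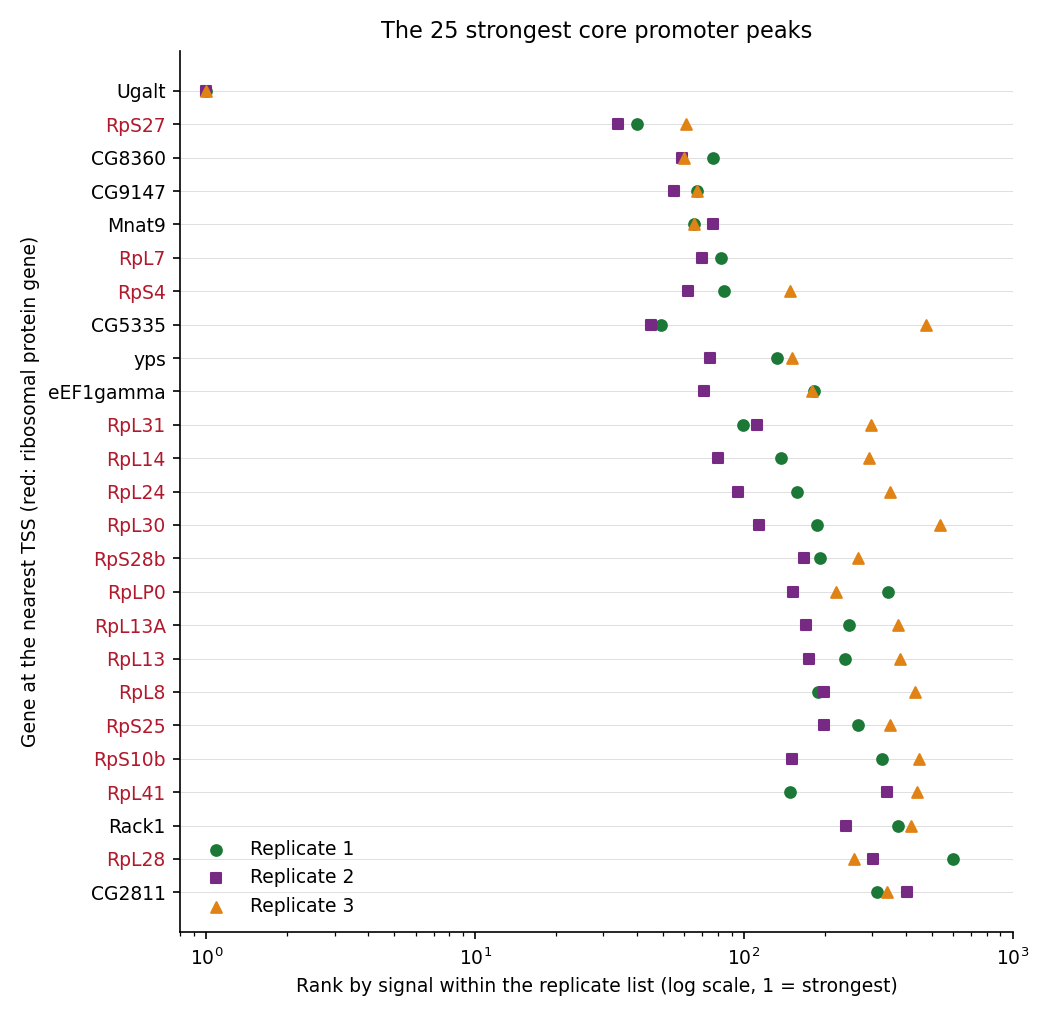
Rank by signal within each replicate list (log scale, 1 is strongest) of the 25 strongest core promoter peaks, ordered by rank in the thresholded list with the strongest on top. Of the 25 peaks, 24 have an entry within 100 bp in every replicate, and the 25th, at RpL7, lacks one in replicate 3.

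The other members among the 25 strongest came from 9 genes of mixed function. Ugalt encodes a transporter that carries UDP-galactose into the Golgi, and its peak at chrX:2703703-2704067 ranked 1 in every replicate. Mnat9, which encodes a microtubule-associated acetyltransferase, ranked 65, 77 and 65 in replicates 1, 2 and 3. The Y-box RNA-binding protein gene yps ranked 133, 75 and 151. The eEF1gamma gene, for a subunit of the factor that brings aminoacyl-tRNA to the ribosome, ranked 182, 71 and 180. Rack1, which encodes a scaffold protein bound to the small ribosomal subunit, ranked 375, 240 and 420. The remaining 4, CG8360, CG9147, CG5335 and CG2811, encode proteins that RefSeq describes as uncharacterized. CG5335 varied most of these, at 49 and 45 in replicates 1 and 2 and at 475 in replicate 3.

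Most ribosomal protein genes without a core promoter peak had no thresholded summit nearby at all. Of the 31 such genes, 7 had a summit within 500 bp and 24 had none. The closest to the limit were RpS14b at 57 bp and RpL32 at 59 bp, and the replicate 2 summit of RpL32, at rank 172, was inside it. RpL9 was a special case, with core promoter entries at ranks 534, 439 and 1920 in replicates 1, 2 and 3 and no pooled entry within 50 bp. Of 2048 entries of replicate 1 with a partner among the strongest entries of both other replicates, 11 had no pooled entry within 200 bp, RpL9 among them. The RpS3A gene on chromosome 4 ranked 304 and 460 in replicates 1 and 2, and the RpL5 gene 2616 and 4758 in replicates 2 and 3, both without a pooled entry at the core promoter. RpL15, RpL38 and RpS2 ranked 4079, 2823 and 2780 in replicate 2, and RpS24 ranked 3457 in replicate 1. Each was among the strongest 4261 entries of that replicate only, and none had a pooled entry at the core promoter. Why these sites were missing from the pooled list was not tested.

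A core promoter peak fell on exactly 1 copy of each duplicated ribosomal protein gene. The list held 9 pairs whose symbols differ only by a final a or b, or 1 or 2, and in all 9 pairs 1 copy had the peak and the other did not. The copies with a peak were RpL10Ab, RpL34a, RpL37-1, RpS5a, RpS10b, RpS14a, RpS15Aa, RpS19a and RpS28b. Some of the other copies had a thresholded summit past the 50 bp limit, RpS14b at 57 bp, RpL34b at 83 bp and RpS28a at 474 bp. For RpS28b the ranks were 192, 167 and 267 in replicates 1, 2 and 3, and RpS28a had no entry within 50 bp of a TSS in any replicate. RpS19a ranked 346, 324 and 516, and RpS19b likewise had no such entry. In 2 pairs the other copy had an entry in a single replicate: RpS14b ranked 1921 in replicate 2, and RpS15Ab ranked 10588 in replicate 1. The pairs were picked out after these values were seen. Reads from near-identical copies can be split or discarded in alignment, and the part of this in the pattern was not tested. Of the 70 ribosomal protein genes outside the pairs, 48 had a core promoter peak (68.6%).

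Most members, 435 of 492, lay outside the ribosomal protein list, but the other gene lists held few of them. Their counts are to be read against the 3.59% of all genes in the thresholded list and the 4.79%, 3.64% and 1.87% in replicates 1, 2 and 3. Lists also differed in TSSs per gene, from 1.09 for cuticle proteins to 2.62 for glycolysis, against 1.41 over all genes, and a gene with more TSSs has more places for a peak. Among translation initiation and elongation factors, 8 of 53 genes had a core promoter peak (15.1%, Wilson 95% interval 7.85 to 27.1%), and 5, 6 and 2 of them had one in replicates 1, 2 and 3. After eEF1gamma the strongest were eEF2, which moves the ribosome along the mRNA, at ranks 919 and 426 in replicates 1 and 2 with no entry in replicate 3, and eEF1alpha1, at 1375, 765 and 1218. eEF5, which helps the ribosome past stalling peptides, followed at 1066 and 1161, again with no entry in replicate 3.

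Lists of regulatory genes held small numbers of members. Nuclear receptors, a family of transcription factors some of which bind hormones, had 4 of 21 genes (19.0%, 7.67 to 40%) at 2.38 TSSs per gene. Eip75B of the ecdysone response was strongest at ranks 899, 420 and 472, and the others were Eip78C, Hr78 and Hr39. Signalling genes had 7 of 48 (14.6%, 7.25 to 27.2%) at 2.04 TSSs per gene. The strongest of these were Thor, the inhibitor of cap-dependent translation, at 656, 2370 and 1414, and InR, the insulin receptor, at 546, 3128 and 1514. They were followed by shn, a transcription factor of Dpp signalling, and aop, an Ets-family repressor. The bZIP factors, at 2.39 TSSs per gene, had 3 of 18: cnc, the fly relative of Nrf2, kay, the Fos gene, and slbo, a C/EBP gene. These intervals were wide, since the lists were short.

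Heat shock and chaperone genes had 3 of 37, namely Hsc70-5, Hsp26 and Hsc70-4. The list of core promoter and insulator factors held 2 of 17, BEAF-32 and E(z). E(z) encodes the histone H3 lysine methyltransferase of Polycomb repression, so it belongs with the Polycomb and trithorax genes, where it was counted again. These had 2 of 23, Su(z)2 and E(z). BEAF-32, which encodes a boundary element protein, had 2 core promoter peaks, at ranks 2897 and 4137 in the thresholded list. Single members were the ATP synthase gene ATPsynC among 87 respiratory chain genes, TfIIA-S among 54 general transcription genes, the splicing factor gene B52 among 36 splicing genes and alphaTub84B among 16 tubulin and actin genes. B52 ranked 675 and 962 in replicates 2 and 3 and had no entry within 100 bp in replicate 1.

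No member came from 9 of the lists, none of which covers every gene of its kind. These were the lists of genes for mitochondrial ribosomal proteins (0 of 75, Wilson upper limit 4.87%), chemoreceptors (0 of 179, upper limit 2.10%), cuticle proteins (0 of 121, upper limit 3.08%), proteasome subunits (0 of 43), cell cycle and DNA replication (0 of 35), tRNA synthetases (0 of 32), neuronal functions (0 of 24), muscle (0 of 22) and glycolysis (0 of 13). The member Cdc7, for example, acts in DNA replication but was not on the list of 35. An absence of core promoter peaks was not an absence of binding. A thresholded summit lay at 500 bp or less from a TSS of 7 of the 13 glycolysis genes (53.85%). The same held for 10 of the 75 mitochondrial ribosomal protein genes (13.3%) and for 1869 of all 13945 protein-coding genes. The mitochondrial share was thus close to that of all genes. In the shorter lists a count of 0 did not exclude the 3.59% of all genes, since the interval for the 35 cell cycle genes reached 9.89%.

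Counting each peak at its nearest TSS gave 483 different genes, 10 peaks being equally close to 2 genes. A pair of core promoter peaks fell on 9 genes: BEAF-32, Bacc, CG13585, Elp5, chic, eIF4A, klar, nuf and shot. Genes of the lists accounted for 90 members. A further 102 members lay at genes known only by a CG number, and such genes were 20.9% of the genes with a core promoter peak, against 43.7% of all protein-coding genes. The TSS of the Ensembl canonical transcript was the nearest one for 327 members (66.5%), against 71.1% of all TSSs being canonical.

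The core promoter peaks as a whole were not the strongest class, and their strength divided by gene type. In the thresholded list their median rank was 2275, against 1716 for peaks 51 to 500 bp upstream of a TSS, 2556 for peaks 51 to 500 bp downstream and 2113 for all 3769 other peaks. Members at ribosomal protein genes had a median rank of 604, against 2459 for the 435 members at other genes. In replicates 1, 2 and 3 the median ranks were 599, 428 and 743 at ribosomal protein genes, against 1962, 2590 and 3426 at other genes. Ribosomal protein members were the stronger ones in every replicate.

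Core promoter peaks made up 8.69% of the strongest quintile of the thresholded list (74 of 852 peaks, Wilson 95% interval 6.97 to 10.8%). The later quintiles held 11.5%, 13.8%, 12.2% and 11.5%. Ribosomal protein genes accounted for 38 of the 74 members in the strongest quintile and for 13, 5, 1 and 0 in the quintiles after it. The members at other genes were 4.23% of the strongest quintile and 13.3% of the middle one.

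**Figure D3:**
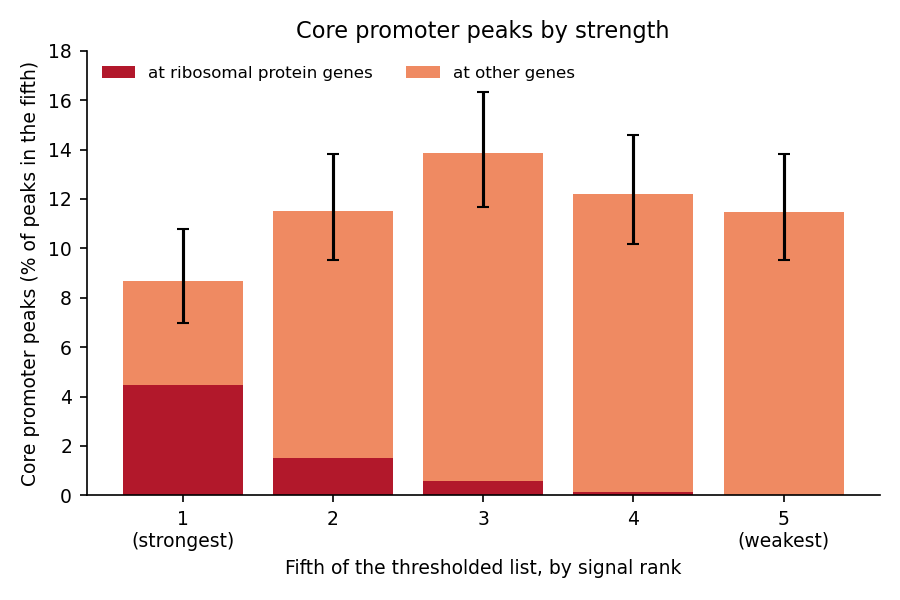
Share of thresholded peaks that were core promoter peaks in each quintile of the list by signal rank, split into ribosomal protein genes (dark red) and other genes (orange), with Wilson 95% intervals on the total. Ribosomal protein genes held 38 of 74 members in the strongest quintile and 0 of 98 in the weakest.

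The replicates did not agree on whether core promoter peaks were stronger or weaker than the rest. Over members with an entry within 100 bp, the median rank was 1729 in replicate 1, against 2295 for other thresholded peaks, so that core promoter peaks were stronger there. In replicate 2 it was 2384, against 2143, and in replicate 3 it was 2973, against 1839, so that they were weaker in both. The mean difference in median rank, core minus other, was 270 ± 850 (SD, n = 3), which was smaller than the spread between replicates (exact paired sign-flip permutation test, two-sided, p = 0.75). With 3 replicates the smallest p this test allows is 0.25. It was applied to 9 comparisons here, and every adjusted p was 1.

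Support in single replicates showed where the disagreement lay. Support meant that a replicate had, among its strongest 4261 entries, a summit no more than 100 bp from that of the peak. The thresholded list had itself been selected for agreement among these replicates. In replicate 1, 421 core promoter peaks were supported (85.6%), against 75.7% of other peaks, where 76.8% of all thresholded peaks were supported. In replicate 2 it was 396 (80.5%), against 80.0% of other peaks, the share of all thresholded peaks being 80.0% too. In replicate 3 it was 218 (44.3%), against 73.0% of other peaks and 69.7% of all thresholded peaks. The differences, core minus other, were 9.90 percentage points (95% Newcombe interval 6.26 to 13.1) in replicate 1, 0.52 (-3.42 to 4.03) in replicate 2 and -28.7 (-33.3 to -24.1) in replicate 3. Their mean was -6.11 ± 20.1 points (SD, n = 3), smaller than the spread between replicates (exact paired sign-flip permutation test, two-sided, p = 1, adjusted p = 1).

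All 3 replicates supported 169 of the 492 core promoter peaks (34.3%, Wilson 95% interval 30.3 to 38.6%), below the 48.5% of all thresholded peaks. Against other thresholded peaks, of which 50.3% were supported, the difference was -16.0 points (95% Newcombe interval -20.3 to -11.4). Against peaks 51 to 500 bp upstream it was -19.6 points (-24.7 to -14.2), and against peaks 51 to 500 bp downstream it was 3.16 points (-3.67 to 9.77), an interval that includes 0. Without replicate 3 the difference from other peaks turned round, to 5.87 points, and 344 core promoter peaks had the support of both replicates 1 and 2. Of these, 175 members (35.6%) were supported in replicates 1 and 2 but not in 3, against 13.7% of other peaks. No replicate supported 12 of the members (2.44%), against 1.78% of all thresholded peaks.

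**Figure D4:**
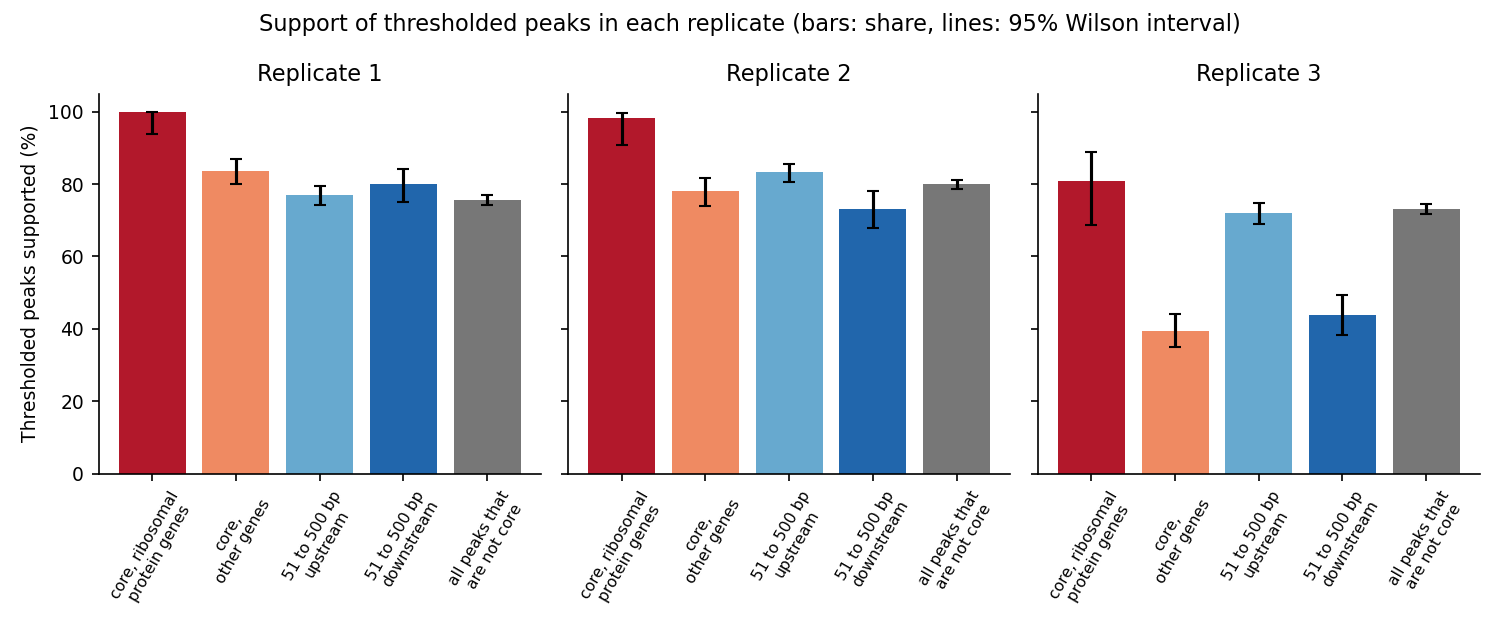
Share of thresholded peaks supported in each replicate for core promoter peaks at ribosomal protein genes, core promoter peaks at other genes, peaks 51 to 500 bp upstream or downstream of a TSS and all peaks that are not core (bars, with Wilson 95% intervals as lines). In replicate 3 core promoter peaks at other genes (39.5%) and downstream peaks (43.7%) fall below the rest, while core promoter peaks at ribosomal protein genes stay at 80.7%.

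The low support in replicate 3 fell mainly on members outside the ribosomal protein genes. At ribosomal protein genes 57, 56 and 46 of 57 members were supported in replicates 1, 2 and 3, and 45 in all 3 (78.9%). At other genes 364, 340 and 172 of 435 were, and 124 in all 3 (28.5%). The difference in support by all 3 was 50.4 points (95% Newcombe interval 37.4 to 59.9). Support was defined by rank, and ribosomal protein members were the stronger ones, so this difference is not separate from strength. The groups were not compared at equal rank. Of the 50 strongest core promoter peaks, 46 were supported in all 3 replicates, and of the 100 strongest, 83.

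Base composition moved with support in every replicate. Within 50 bp of the summit, core promoter peaks had a median GC content of 48.5%, against 37.6% for other thresholded peaks. Where GC was under 40%, replicate 3 supported 71.1% of 76 core promoter peaks, against 82.1% of 2297 other peaks. Between 40 and 50% it supported 38.6% of 215, against 62.7% of 973, and at 50% or more 40.3% of 201, against 51.7% of 499. Members at ribosomal protein genes were supported more often than other peaks in each class, at 100% of 6, 75.8% of 33 and 83.3% of 18. Members at other genes were supported less often, at 68.6%, 31.9% and 36.1%. In both groups of members the share was highest where GC was under 40%. Replicate 2 support was also lower at higher GC, at 86.8%, 80.5% and 78.1% of core promoter peaks, against 83.8%, 76.9% and 68.1% of other peaks. In replicate 1 it was higher, at 75%, 87.0% and 88.1% of core promoter peaks, against 74.0%, 77.4% and 79.8% of other peaks. The part of base composition in these differences was not tested.

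Members shifted between replicates about as far as other peaks did. Among entries matched within 100 bp, the median shift between the thresholded summit and the replicate summit was 9, 8 and 16 bp for core promoter peaks in replicates 1, 2 and 3, against 9, 9 and 16 bp for other peaks. The mean difference was -0.33 ± 0.58 bp (SD, n = 3; exact paired sign-flip permutation test, two-sided, p = 1), less than the spread between replicates. The replicate's own summit was also within 50 bp of the TSS for 421 of 483 members with an entry in replicate 1 (87.2%), 409 of 478 in replicate 2 (85.6%) and 246 of 329 in replicate 3 (74.8%). Of the 315 members with an entry in every replicate, 190 had all 3 summits inside the limit. The range of the 3 summits had a median of 39 bp for core promoter peaks, against 36 bp for other peaks. Across the members, Spearman's rho between replicate ranks was 0.61 for replicates 1 and 2 (469 peaks), 0.47 for 1 and 3 and 0.65 for 2 and 3 (322 peaks each). For other peaks it was higher each time, at 0.71, 0.62 and 0.67. These values are descriptive, since the peaks share their libraries.

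Summits at ribosomal protein genes sat closer to the TSS than the limit required. Within 25 bp of it lay 45 of 57 (78.9%, Wilson 95% interval 66.7 to 87.5%), against 221 of 435 at other genes (50.8%, 46.1 to 55.5%). The same shares in replicates 1, 2 and 3 were 66.7%, 78.6% and 63.8% at ribosomal protein genes, against 48.6%, 45.5% and 38.3% at other genes. Their median position was -5 bp, just upstream of the TSS, against 4 bp downstream at other genes. In replicate 1 the medians were the same, at 2 bp each, and in replicates 2 and 3 they were -4.5 and -12 bp, against 2 and 4.5 bp.

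Core promoter elements were sought around the nearest TSS of every member, with the TSS base counted as 0. The TCT initiator (CCTTTT or TCTTTT or CCTTTC or TCTTTC, with the C before TTT within 10 bp of the TSS, sense strand) was the one that set ribosomal protein members apart. It was found at 62 of 492 core promoter peaks (12.6%), against 2.99% of all 19607 TSSs. Of these, 47 were among the 57 ribosomal protein members (82.5%, Wilson 95% interval 70.6 to 90.2%), against 52.6% of all TSSs of ribosomal protein genes (44.7 to 60.4%). At other genes 15 of 435 members had it (3.45%, 2.10 to 5.61%), close to the 2.61% of all TSSs of other genes.

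Counted by gene, the element alone did not mark which genes were members. Of the 57 ribosomal protein genes with a core promoter peak, 52 had a TCT initiator at a TSS (91.2%, 81.1 to 96.2%), against 22 of the 31 without a core promoter peak (71.0%, 53.4 to 83.9%). Among ribosomal protein genes, 52 of 74 with the element had a core promoter peak (70.3%), against 5 of 14 without it (35.7%). Of 496 other genes with a TCT initiator, 36 had a core promoter peak (7.26%), against 3.59% of all protein-coding genes. Rack1 was the strongest member outside the ribosomal protein list with this element, and its start is shown on chr2L:7827226-7827276, minus strand, from 30 bases before to 20 bases after the TSS.
Rack1: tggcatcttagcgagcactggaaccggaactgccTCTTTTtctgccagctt

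The DRE (TATCGATA, which reads the same on both strands, within 100 bp of the TSS) was more frequent at ribosomal protein members than at the others. It was found at 47 core promoter peaks (9.55%), against 6.43% of all TSSs. At ribosomal protein genes 19 of 57 members had it (33.3%, Wilson 95% interval 22.5 to 46.3%), and at other genes 28 of 435 (6.44%, 4.49 to 9.15%). Of all TSSs of ribosomal protein genes 36 of 152 had it (23.7%), a share inside the interval of the ribosomal protein members. All TSSs of other genes had it in 6.29% of cases, so the gene groups also differed without regard to core promoter peaks. TSSs nearest to peaks 51 to 500 bp upstream had it in 3.07% of cases. The strongest member with a DRE was eEF1gamma, shown on chr3R:29220120-29220149, plus strand, upstream of its TSS.
eEF1gamma: ggcctaggaaaTATCGATAtatcgccgtaa
The next were RpS25 at rank 246 and RpS10b at rank 255 in the thresholded list.

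Members at other genes carried an initiator, a DPE or a GAGA motif more often, and a TATA box less often, than TSSs at large. The initiator (TCAGTT or TCAGTC or TCATTT or TCATTC, with its A within 10 bp of the TSS, sense strand) was found at 112 core promoter peaks (22.8%), against 14.8% of all TSSs. All 112 were at other genes (25.7% of 435, Wilson 95% interval 21.9 to 30.1%), and 0 of 57 ribosomal protein members had it (upper limit 6.31%). The DPE (AGACG or GGACG or AGTCG or GGTCG, first base 25 to 31 bp downstream, sense strand) was found at 51 (10.4%), against 4.67% of all TSSs. The TATA box (TATAAA, first base 45 to 20 bp upstream, sense strand) was less frequent, at 20 members (4.07%, 2.65 to 6.20%), against 7.68% of all TSSs. The motif bound by the GAGA factor (GAGAGAG, either strand, within 100 bp) was found at 55 members (11.2%), none of them ribosomal, against 4.67% of all TSSs.

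These frequencies were not particular to the core promoter peaks. TSSs nearest to peaks 51 to 500 bp upstream had an initiator in 24.3% of cases, a DPE in 8.88%, a TATA box in 3.70% and GAGA in 12.5%, each within the Wilson interval of the members at other genes. One example of each is given from a strong member outside the ribosomal protein list, with the element in capitals. The initiator is that of Mnat9 (chr3R:31616140-31616190, minus strand) and the TATA box that of Cdc7, the kinase that fires replication origins (chrX:6654496-6654561, plus strand). The DPE is that of nuf, which encodes a recycling endosome protein (chr3L:14190891-14190920, plus strand), and GAGA that of CG11857 (chr3R:25258912-25258941, plus strand).
Mnat9: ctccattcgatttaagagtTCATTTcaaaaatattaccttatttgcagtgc
Cdc7: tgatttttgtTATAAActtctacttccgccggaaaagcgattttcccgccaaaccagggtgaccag
nuf: tttagtttgaagcGGACGcatcgtcgggct
CG11857: agccctgccactGAGAGAGcataatgacgt
Other strong members with these elements were shot, a cytoskeletal linker gene, and CG5805 for the initiator, CG2811 and RpL8 for the DPE, RpL39 and Ufsp1, a UFM1 peptidase gene, for the TATA box, and Ufsp1 and the teneurin gene Ten-a for GAGA.

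The remaining elements were nearer, in percentage points, to their frequency at all TSSs. Motif 1 (GGTCACACT, either strand, within 100 bp) was found at 32 core promoter peaks (6.50%, Wilson 95% interval 4.65 to 9.04%), against 4.43% of all TSSs. RpLP0, RpL27A and RpS23 were the strongest. Motif 6, a longer AT-rich consensus, was found at 8 (1.63%), against 1.44%, led by RpLP0, RpS25 and RpL3. Motif 7 (CAGCNCTA, either strand, within 100 bp) was found at 15 (3.05%), against 2.52%, led by RpS19a, RpL17 and RpL34a. At ribosomal protein members motifs 1, 6 and 7 were at 10.5%, 7.02% and 5.26%, and at members of other genes at 5.98%, 0.92% and 2.76%. All TSSs of ribosomal protein genes had them in 8.55%, 3.29% and 5.92% of cases. The E-box (CAGCTG, the same on both strands, within 100 bp) was found at 76 (15.4%), against 13.5%, led by RpS27, Mnat9 and CG3764. None of the 10 elements was found at 165 members (33.5%, Wilson 95% interval 29.5 to 37.8%), against 50.8% of all TSSs.

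**Figure D5:**
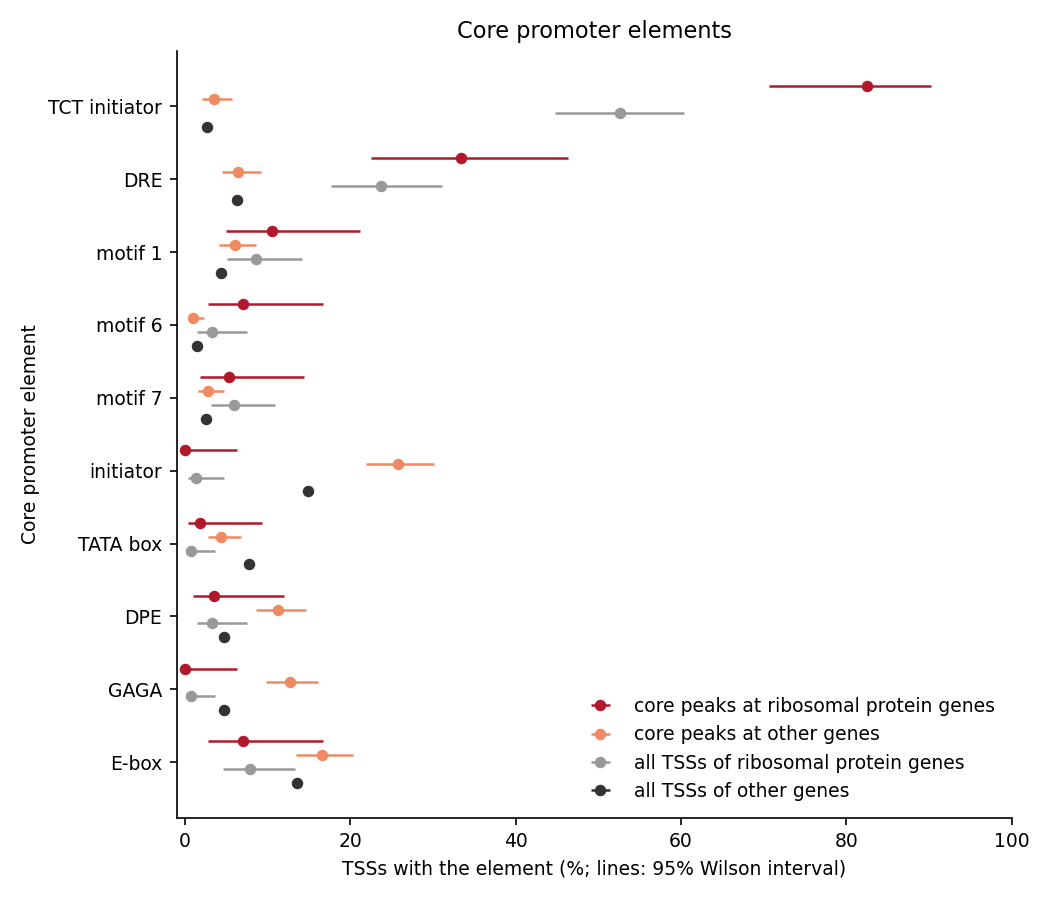
Share of TSSs with each element at core promoter peaks of ribosomal protein genes, core promoter peaks of other genes, all TSSs of ribosomal protein genes and all TSSs of other genes (points, with Wilson 95% intervals as lines). The TCT initiator separates ribosomal protein members (82.5%) from members at other genes (3.45%), and the initiator is found at 25.7% of members at other genes and at none of the ribosomal protein members.

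Median ranks differed with some elements. Members with a TCT initiator had a median rank of 737 in the thresholded list, against 2431 without one, but outside the ribosomal protein genes the medians were 2167 for the 15 with it and 2477 for the 420 without. For the DRE the medians were 1333 with and 2338 without, and outside the ribosomal protein genes 2756 with and 2453 without. The 20 members with a TATA box had a median rank of 1660, against 2305 without one, and outside the ribosomal protein genes the medians were 1830 for 19 and 2486 for 416. In replicate 3 the order of these was the other way round, at 4119 with a TATA box and 3404 without. Support in replicate 3 differed by element among the members at other genes. It was 58.3% for the 72 members with an E-box, against 35.8% for those without, and 30.4% for the 112 with an initiator, against 42.7% for those without. In replicate 1 the E-box values were 83.3% and 83.7%. These splits were made after the values were seen and were not tested.

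Short sequences at the summits themselves differed between the member groups. All 6-mers on both strands were counted within 50 bp of the summit and in windows of the same size centred 300 bp to either side, and those with the largest excess are given, without a test because they were chosen by that excess. At ribosomal protein members AAAGAA, whose reverse complement TTCTTT overlaps the TCT initiator, was at 68.4% of summits, against 10.5% of flanks. Next was AAAAGA at 61.4%, against 6.14% of flanks, and CGGAAA, which does not overlap the TCT initiator, at 57.9%, against 4.39%. CGGAAA was within 50 bp of 32.9% of all TSSs of ribosomal protein genes and of 6.75% of all TSSs. At members of other genes it was at 12.4% of summits, against 5.52% of flanks, and at other thresholded peaks at 5.57%, against 6.70%.

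At members of other genes the largest excess was that of ACTGAA, the reverse complement of TTCAGT, which overlaps the initiator, at 16.6% of summits, against 5.75% of flanks. CGAGCG followed at 13.1%, against 2.30%, and ACACTG at 14.9%, against 4.37%. All 3 were also found around all TSSs, at 13.9%, 6.18% and 9.72%. The leading 6-mer of the other thresholded peaks was AAATAT, at 28.2% of their summits, and it was at 9.35% of core promoter summits.

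Members differed from upstream peaks in their surroundings. A TSS on the opposite strand lay within 500 bp upstream of the nearest TSS for 120 core promoter peaks (24.4%, Wilson 95% interval 20.8 to 28.4%), against 13.1% for peaks 51 to 500 bp upstream (11.1 to 15.4%), 22.7% for peaks 51 to 500 bp downstream and 22.7% of all TSSs. A peak between 2 divergent starts is given to the nearer one, so the upstream class loses such peaks by its definition. By chromosome arm, core promoter peaks were 6.92% of thresholded peaks on X (49 peaks), against 12.5%, 13.5%, 12.1% and 11.9% on 2L, 2R, 3L and 3R. The fixed width of 370 bp, given by the authors' processing, was shared by 70.3% of core promoter peaks and 51.7% of other peaks.

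The 50 bp limit did not fall at a gap in the data. At exactly 50 bp lay 5 peaks, at CG3609, Dp1, CG42806, Cad87A and Dyro, with ranks of 949 to 2707 and a median of 1910 in the thresholded list. At 51 bp lay 11 peaks, with ranks of 755 at chn to 4015 at Mbs and a median of 1700.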

How the data were processed

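ChIP-seq of GFP-tagged CG12071 was analysed from 5 deposited lists of peaks, 1 for each of 3 replicates, 1 for the pooled alignments and 1 thresholded by irreproducible discovery rate (IDR). Per the sample file records, each list was called against a control on assembly dm6. No aligner or peak caller is named in the sources at hand. The signal value is a score that the authors' peak calling gave each entry, deposited without a stated scale, and it served only for ranks within 1 list. The −log10 q-value, as deposited, served only to count entries at 0.05 or less. The replicate and pooled lists end at 30000 entries each, so their lengths carry no information. The descriptions of the replicates speak of an input control, but the other labels and the file records describe immunoprecipitations, and they were treated as such.

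From these lists, summits were assigned to the nearest of 19607 TSSs of 13945 protein-coding genes (Ensembl release 115, BDGP6.54, arms 2L, 2R, 3L, 3R, 4 and X), ties going to the lower gene ID. Replicate entries were matched within 100 bp, taking the strongest. Sequence came from RefSeq release 6, which shares coordinates with dm6. Replicates were compared with a two-sided exact paired sign-flip permutation test with Benjamini-Hochberg adjustment, shares with Wilson intervals and differences of shares with Newcombe intervals, both 95%. The nearest-TSS, matching and element steps were tested on simulated data. Tables were handled in pandas 2.3.3 under Python 3.11.15 with NumPy 2.4.6, tests and intervals came from SciPy 1.17.1, adjusted p-values from statsmodels 0.14.6 and figures from matplotlib 3.10.9.

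The members, the gene lists and the elements were chosen with earlier results of these data known. RpL37-1 and RpL37-2 were added to the ribosomal protein list after the files were read, because its symbol pattern had missed them. The text names the tagged gene, those at the 25 strongest core promoter peaks, up to 4 members per list, the 3 strongest members per element and the peaks at the limit. Further genes (ribosomal protein genes without a peak, copies of duplicated genes, genes with 2 peaks) were named after their values were seen. Alternatives were other limits, the strongest 2130 peaks, 1 TSS per gene, other matching rules, other element windows, leaving out each replicate and, added after the data were seen, leaving out ribosomal protein members.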

Additional observations from a re-analysis of the deposited data

How the results depend on the processing

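Without replicate 3, 3 results turned round. The mean support difference, core minus other, became 5.21 points (reported -6.11), the difference in support by all replicates used 5.87 points (reported -16.0) and the difference in median rank -162 (reported 270). Leaving out each replicate in turn gave ranges of -14.1 to 5.21, -21.0 to 5.87, and -162 to 688 for these. Over the same settings, which kept only core promoter peaks supported by both other replicates, their number ran from 186 to 344 (4.37 to 8.07%), genes with one from 188 to 352, ribosomal protein genes from 45 to 56, the TCT initiator share from 16.6 to 22%, the median position from -7.5 to 2 bp and the shift difference from -0.5 to 0 bp.

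The shift difference (reported -0.33 bp) became 0.67 bp with a limit of 100 bp and with matching by overlap of at least 50% of the peak, 0.17 bp with matching within 200 bp and 0.33 bp without ribosomal protein genes, all under 1 bp. With limits of 25 and 100 bp there were 266 and 808 core promoter peaks (6.24 and 19.0%), 268 and 823 genes and TCT shares of 16.2 and 9.28%. The all-replicate difference was -10.0 points at 25 bp, and the median position -4.5 bp at 100 bp. The strongest 2130 peaks held 229 core promoter peaks and 232 genes, with a TCT share of 22.3% and an all-replicate difference of -20.5 points. With 1 TSS per gene the share was 7.98%. Narrower element windows gave a TCT share of 7.72%. Without ribosomal protein members the share of core promoter peaks was 10.3%, the TCT share 3.45% and the all-replicate difference -21.8 points. The causes of these changes were not tested. Of 185 recomputed values, 126 stayed within the spread or on the same side.

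Groups were not paired, since the series has 1 group, and the sign-flip test paired core promoter with other peaks within each replicate. That test cannot reach 0.05 with 3 replicates, and none of its 9 comparisons passed. Read depth was not used here. A replicate left out had still contributed to the thresholded list. The fragments were longer than the 50 bp limit.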
